A study of Mus musculus with 12 samples.

Results

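Liver gene expression was compared between Shp Hep-/- mice (hepatocyte knockout of Shp, here KO) and wild-type (WT) mice that were both fed chow. The comparison takes 6 of the 12 sequenced livers, chosen by their genotype and diet labels, with 3 livers a group. All mice were C57BL/6 and 5 months old, and the other 6 livers are WT and KO mice on a diet labelled HFCF. The comparison asks what the loss of Shp in hepatocytes changes in a liver that is not on that diet. The promoter that drives the deletion, the sex of the mice and whether they were littermates are not given in the sources used here. Where nothing says how replicates were obtained, p-values measure only the spread between these livers.

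Shp, gene symbol Nr0b2, is an orphan nuclear receptor that has no DNA-binding domain. It is induced by bile acids through FXR (Nr1h4) and acts as a corepressor: it binds other nuclear receptors, among them LRH-1 (Nr5a2) and HNF4A, and lowers transcription of their target genes. In liver it is best known for the feedback by which bile acids repress Cyp7a1, the rate-limiting enzyme of their own synthesis, and it also acts on lipid metabolism and on inflammatory gene expression.

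RNA was extracted from frozen liver, depleted of ribosomal RNA and made into stranded libraries. The 6 chow libraries held between 13967116 and 17772906 counts, and 14736 of 15846 genes passed a filter on low counts. The first principal component of these 6 libraries held 64% of the variance and separated KO from WT, and no library stood with the other group. Hepatocyte markers were high in each liver, with a summed level of 120000 to 124800 CPM over 23 genes in WT and 111200 to 122900 CPM in KO. Of these 23 genes 6 fell (26.1%) and 1 rose (4.35%). Falls took in 5.82% of all tested genes and 20% of those at 100 CPM and over, and rises 9.72% of all tested genes. In 12 of the 23 every KO liver lay below every WT liver, against 2469 of all 14736 tested genes. The 6 falls were 3 without WT replicate 2 or 3 or KO replicate 3, and the rise was lost without any single chow library. CPM is the count scaled to library size with TMM factors. Every fold change sets KO against WT, the value after ± is the standard error of the log2 fold change unless named otherwise, and n is 3 livers in each group throughout. Adjusted p values are Benjamini-Hochberg values over all tested genes from edgeR's quasi-likelihood test. Levels in CPM are not divided by gene length, so they are compared between livers and not between genes.

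Nr0b2 (ENSMUSG00000037583, mm10 chromosome 4, 133553376 to 133556536, plus strand), the targeted gene, was nearly absent in KO. It stood at 49.3, 22.4 and 31.0 CPM in the WT livers and at 0.775, 0.552 and 1.01 CPM in the KO livers. Every KO liver lay below every WT liver, and the WT livers themselves were spread widely. The log2 fold change was -5.44 ± 0.32 (edgeR adjusted p = 1.7e-07). Whole-liver RNA holds all cell types, so here and below fewer cells of a type and less RNA per cell, or more of either, cannot be told apart.

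Genes beside Nr0b2 also differed. Nudc, which encodes a dynein-associated protein of nuclear migration and lies beside Nr0b2 on the opposite strand (chromosome 4, 133532542 to 133545996), stood at 43.3, 49.6 and 40.9 CPM in WT against 74.6, 80.8 and 86.0 CPM in KO. Every KO liver exceeded every WT liver (0.85 ± 0.09, edgeR adjusted p = 8.42e-05). Within 1 Mb on each side of Nr0b2, 14 of 43 tested genes rose and 1 fell, which is 32.6% up against 9.72% of all tested genes. The share up was 18.3% of 169 genes within 5 Mb and 13.1% of 268 within 10 Mb. Of 12 tested genes from a list of close neighbours, 5 rose, among them Nudc, Wasf2, Arid1a and Zdhhc18. That count of 5 fell to 2 without WT replicate 3 and to 3 without WT replicate 1, KO replicate 1 or KO replicate 2, and of the 5 genes Nudc alone was called in every fit run. Whether the position of these genes has a part in the result was not tested.

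**Figure D1:**
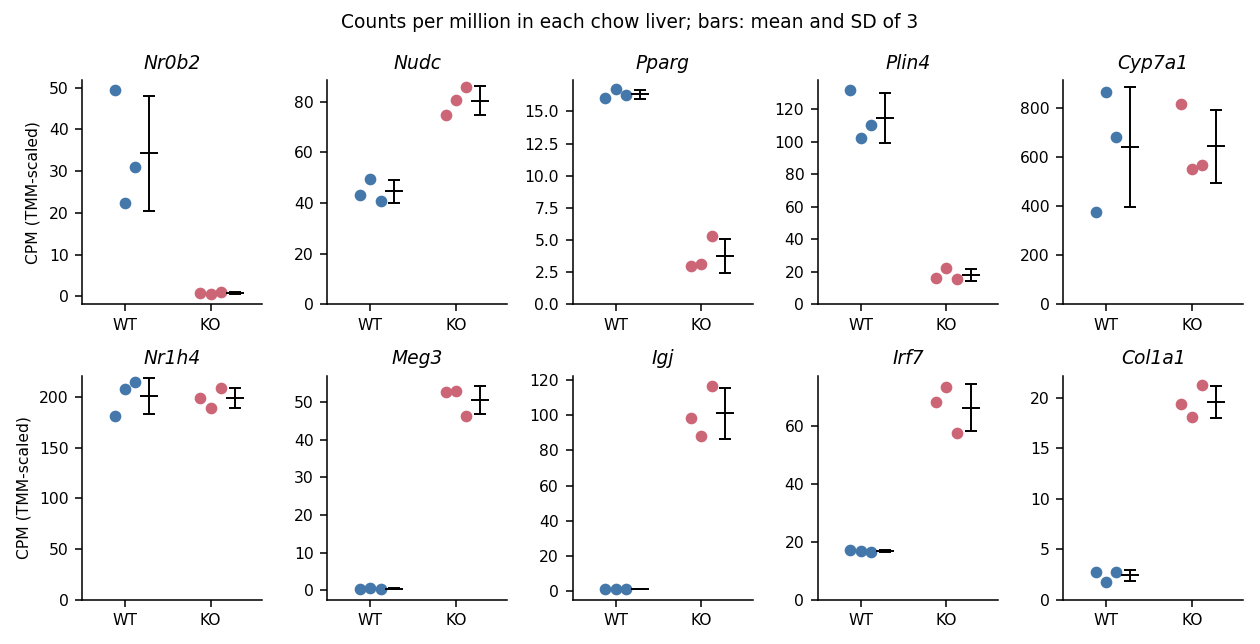
Level of 10 genes in each chow liver, in CPM on a linear axis that reaches down to 0, with blue points for WT, red points for KO and black bars for the mean and SD of 3 livers. Nr0b2 falls to 0.552 to 1.01 CPM in KO, Meg3, Igj, Irf7 and Col1a1 lie higher in every KO liver than in any WT liver, Pparg and Plin4 lie lower, and the groups of Cyp7a1 and Nr1h4 overlap.

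Across the transcriptome, 2289 genes differed between KO and WT (15.5% of those tested). Of these, 1432 rose (9.72%) and 857 fell (5.82%). The rises were larger: at least 2-fold rises numbered 617 and falls of that size 95, the median log2 fold change was 0.89 among genes that rose and -0.38 among those that fell, and 70.1% of the falls were smaller than 0.5. Falls were more frequent among abundant genes: 20% of genes at 100 CPM and over fell and 4.98% rose, while among genes of 1 to 10 CPM 2.16% fell and 13.3% rose. The 3 KO values did not overlap the 3 WT values in 36.1% of all tested genes, and did not overlap in 1416 of the 1432 rises and 846 of the 857 falls. The median over all tested genes was 0.004. Counts of gene list members given here and below are to be read against the shares of 9.72% up and 5.82% down. A fit that leaves out a library has fewer livers in a group, so a lost call need not depend on that liver. Without WT replicate 3 the count of rises dropped to 752 and that of falls to 400, and falls numbered 552 without KO replicate 1, 553 without WT replicate 1, 459 without KO replicate 2 and 568 without KO replicate 3.

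**Figure D2:**
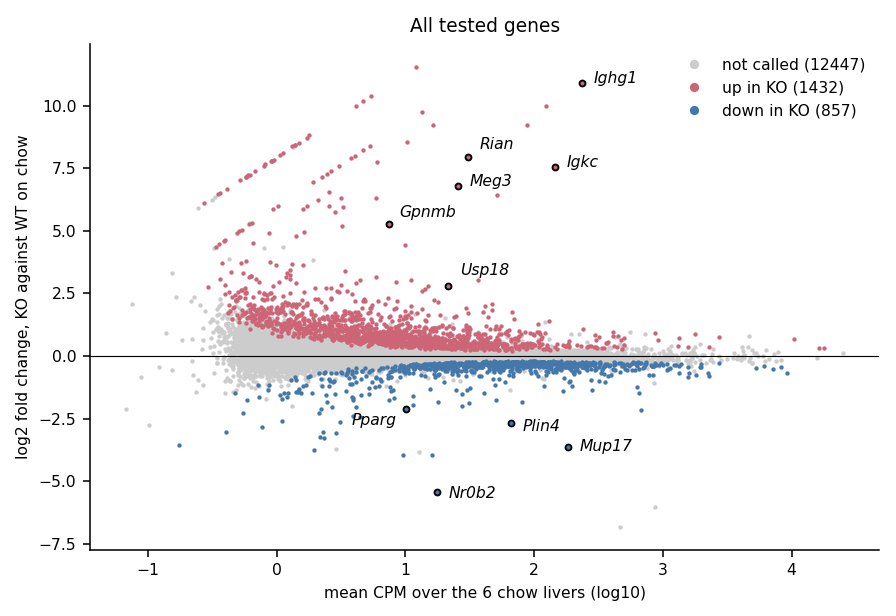
Log2 fold change of KO against WT on chow (vertical axis) against the mean CPM of the 6 chow livers (horizontal axis, log10) for the tested genes, with 1432 called up in red, 857 called down in blue and the rest in grey; 1 gene with no counts on chow is not drawn. The rising lines of red points at the left are genes with no or few counts in WT, whose fitted fold change depends on the prior count; Nr0b2 at -5.44 is the lowest labelled gene.

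No bile acid synthesis gene was called as a rise in the main fit, although this is the pathway for which Shp is best known. Cyp2c70 and Cyp7b1 had positive changes that just missed the threshold (0.88 and 0.98, edgeR adjusted p = 0.0514 and 0.053). Of 19 tested members of the list (1 of 20 did not pass the filter), 0 rose, 4 fell and 15 were not called, with a median log2 fold change of -0.16. The number of rises was 2 with upper quartile scaling, with the replicate number as a block in the fit (the replicate block), in a fit of the chow libraries alone or without KO replicate 2, and 1 with no filter. Cyp7a1 stood at 378, 865 and 684 CPM in WT against 817, 551 and 568 CPM in KO. The ranges overlap, and the fitted change was 0.01 ± 0.30 (edgeR adjusted p = 0.993). Cyp8b1, the sterol 12-alpha-hydroxylase that sets the share of cholic acid, stood at 912, 1164 and 1073 CPM in WT against 897, 822 and 692 CPM in KO. All KO values were lower, but the difference did not pass the test (-0.39 ± 0.18, edgeR adjusted p = 0.169).

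The members that fell include Cyp27a1, the sterol 27-hydroxylase of the alternative pathway, at 679, 749 and 736 CPM in WT and 511, 470 and 498 CPM in KO. The groups were well apart (-0.55 ± 0.09, edgeR adjusted p = 0.00149). Cyp2a12, which rehydroxylates secondary bile acids in mouse liver, fell by 0.81 on the log2 scale, from 454, 505 and 475 to 289, 255 and 274 CPM (edgeR adjusted p = 4.76e-05). Cyp46a1, a sterol 24-hydroxylase, fell at a low level, from 1.72, 1.77 and 1.87 to 0.609, 0.828 and 0.504 CPM (-1.46 ± 0.28). Baat, which conjugates bile acids to taurine and glycine, fell by 0.33, a call that ended without WT replicate 1 or 3 or KO replicate 2 (edgeR adjusted p = 0.059, 0.0617 and 0.0623). Cyp7b1, the oxysterol 7-alpha-hydroxylase, had higher values in each KO liver, with 278, 408 and 434 CPM in WT and 698, 532 and 975 CPM in KO. It did not pass the test (0.98 ± 0.32, edgeR adjusted p = 0.053) and passed with upper quartile scaling (edgeR adjusted p = 0.0496), the replicate block (0.0413), the chow libraries alone (0.0157) and without KO replicate 2 (0.0466).

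Among 15 tested bile acid transporters and related genes, 1 rose, 3 fell and 11 were not called (median -0.09). The rises numbered 3 with upper quartile scaling, a stricter filter (minimum count of 50), DESeq2 or limma voom, and 2 without KO replicate 1. Abcc4, a basolateral efflux pump, rose from 6.01, 5.10 and 4.22 to 17.2, 19.5 and 10.5 CPM, with no overlap (1.62 ± 0.20, edgeR adjusted p = 0.000189). The organic anion uptake carrier Slco1a4 fell from 256, 201 and 272 to 107, 116 and 53.8 CPM (-1.40 ± 0.25, edgeR adjusted p = 0.00238). Slco1b2, another sinusoidal uptake carrier, and Abcc3, a basolateral exporter, fell less, by 0.44 and 0.47 on the log2 scale. Slc10a1, the main sodium-dependent uptake carrier, was not called (-0.09 ± 0.08, edgeR adjusted p = 0.477). Abcb11, the canalicular bile salt export pump, stood at 464, 425 and 473 CPM in WT and 519, 532 and 663 CPM in KO, which do not overlap. It missed the threshold (0.33 ± 0.11, edgeR adjusted p = 0.0527) and passed with upper quartile scaling (0.0491), the stricter filter (0.0417), limma voom (0.0472), DESeq2 (adjusted p = 0.0342) and without KO replicate 1 (0.0488). Slc51b was not analysed here.

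Nr1h4, the bile acid receptor FXR, stood at 181, 208 and 215 CPM in WT against 199, 190 and 209 CPM in KO, ranges that overlap (-0.02 ± 0.08, edgeR adjusted p = 0.92). Of 16 tested genes of FXR signalling and its known targets, 4 rose and 1 fell. Scarb1, the HDL receptor, rose by 0.60 and Osgin1, an oxidative stress-induced growth inhibitor, by 1.09 on the log2 scale. The counts were unstable, with 2 rises without WT replicate 2 or 3 or KO replicate 2, no fall without WT replicate 1 or 3 or any KO replicate, 2 falls without WT replicate 2, and 0 to 3 falls in the other fits.

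**Figure D3:**
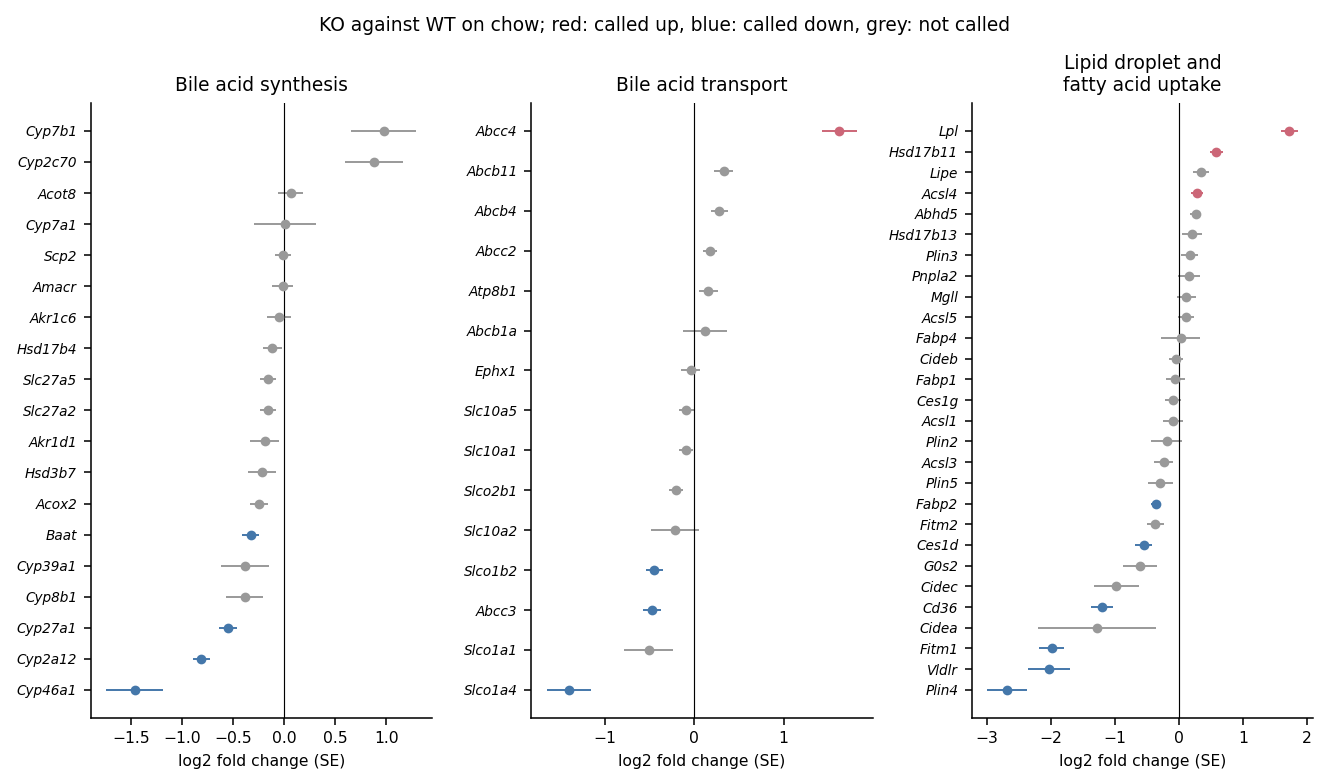
Log2 fold change of KO against WT on chow (horizontal axis) with its standard error for each tested member of 3 lists, from left to right bile acid synthesis, bile acid transport, and lipid droplet and fatty acid uptake genes, coloured red where called up, blue where called down and grey where not called. Cyp7a1 sits at 0.01 and no synthesis gene is red, Abcc4 is the only transporter in red, and Plin4, Vldlr, Fitm1 and Cd36 lie at -2.68 to -1.21 in the right-hand list.

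Among nuclear receptors, 1 of 31 tested rose, 5 fell and 25 were not called. The 5 falls were 3 without WT replicate 3 or KO replicate 3, and the rise, of Nr2f2, was lost without any single chow library other than KO replicate 3. Pparg, the receptor that drives fat storage genes, was the member with the largest fall. It stood at 16.0, 16.7 and 16.3 CPM in WT against 2.93, 3.11 and 5.29 CPM in KO (-2.11 ± 0.29, edgeR adjusted p = 0.000405). The WT livers were nearly alike and every KO liver was lower. Esrrg, an orphan receptor with oxidative metabolism targets, fell from 6.08, 4.96 and 4.84 to 2.38, 2.55 and 2.46 CPM (-1.10 ± 0.18). Ppara, the receptor of fatty acid oxidation, fell by 0.29, a small change whose call ended without WT replicate 1, 2 or 3 or KO replicate 2 or 3 (edgeR adjusted p between 0.0566 and 0.134 in these fits), with the stricter filter (0.053) and with the replicate block (0.0548).

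The receptors that Shp is known to bind were not called. Nr5a2 stood at 73.3, 75.5 and 70.9 CPM in WT and 62.0, 65.2 and 46.7 CPM in KO, all lower (-0.34 ± 0.12, edgeR adjusted p = 0.0685), and was called by DESeq2 (adjusted p = 0.0486) and, at the threshold, without KO replicate 2 (0.05). Hnf4a gave -0.26 ± 0.13 (edgeR adjusted p = 0.183), and Nr1i2, the pregnane X receptor, 0.09 ± 0.09 (edgeR adjusted p = 0.536). Nr1i3, the constitutive androstane receptor, gave -0.41 ± 0.16 (edgeR adjusted p = 0.091). It was called by DESeq2 (adjusted p = 0.0441), in the chow libraries alone (0.0427) and without KO replicate 1 (0.0488). None of 18 tested hepatocyte transcription factors was called in either direction, and 2 rose with the replicate block or without KO replicate 3, with 0 or 1 in the other fits. Of 18 corepressor and coactivator partners 1 rose and 1 fell (5.56% each, against 9.72% and 5.82% of all tested genes). Hdac3, a histone deacetylase, was the one that fell (-0.26 ± 0.08), and it was called in no fit that left out a chow library. Rises numbered 0 without WT replicate 3 or KO replicate 2.

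Lipid storage and uptake genes held some of the largest falls in the liver. Among genes of lipid droplets, fatty acid uptake and PPARG targets, 3 of 28 tested members rose, 6 fell and 19 were not called. Plin4, a lipid droplet coat protein, stood at 132, 102 and 110 CPM in WT against 16.0, 22.4 and 15.3 CPM in KO. The groups did not overlap (-2.68 ± 0.31, edgeR adjusted p = 0.000126). Fitm1, which promotes droplet formation, fell from 45.7, 43.0 and 44.5 to 11.1, 9.59 and 12.7 CPM (-1.99 ± 0.19, edgeR adjusted p = 2.71e-05). Vldlr, a receptor for triglyceride-rich lipoproteins, fell from 6.94, 6.30 and 6.71 to 2.10, 1.86 and 0.882 CPM (-2.03 ± 0.33). The fatty acid transporter Cd36 was at 179, 162 and 158 CPM in WT and 72.0, 69.9 and 73.9 CPM in KO (-1.21 ± 0.17, edgeR adjusted p = 0.000504). Lpl, lipoprotein lipase, went the other way, from 14.2, 13.5 and 14.8 to 54.3, 44.1 and 41.5 CPM (1.72 ± 0.13, edgeR adjusted p = 3.66e-06). Lpl is also a marker of lipid-associated macrophages, whose other markers are described with the immune cells.

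Triglyceride synthesis genes held 3 falls and no rise among 13 tested. Mogat1, an acyltransferase of the monoacylglycerol pathway, fell from 2.29, 1.91 and 1.52 to 0.388, 0.276 and 0.252 CPM (-2.59 ± 0.65, edgeR adjusted p = 0.0168). Its call ended with limma voom (adjusted p = 0.0744) and without WT replicate 1 or KO replicate 2 or 3 (edgeR adjusted p = 0.0513, 0.0529 and 0.0544). Dgat1 fell by 0.45 and Gpam by 0.30, the latter not called without WT replicate 3 or any KO replicate or with the stricter filter. The count of 3 dropped to 1 without KO replicate 3 and was 5 by DESeq2.

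De novo lipogenesis showed little difference. Of 21 tested members only Acss2, an acetyl-CoA synthetase, was called, at -0.29, and its call ended in every fit that left out a chow library. Srebf1, which drives transcription of fatty acid synthesis genes, stood at 55.5, 42.8 and 43.4 CPM in WT and 43.7, 52.7 and 55.2 CPM in KO (0.10 ± 0.16, edgeR adjusted p = 0.724). Fasn gave 0.37 ± 0.17 (edgeR adjusted p = 0.153), with KO replicate 3 at 191 CPM and the other 2 KO livers at 125 and 123 CPM. Scd1 gave 0.05 ± 0.28 (edgeR adjusted p = 0.935).

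In cholesterol synthesis, 2 of 25 tested genes rose (8%) and 1 fell (4%), below the shares of all tested genes (9.72% and 5.82%). Ebp, a sterol isomerase, fell by 0.40. Rises numbered 1 without WT replicate 1 or 3 or KO replicate 2, with no filter, by DESeq2 or in the chow libraries alone, and 3 without KO replicate 1; falls numbered 2 by DESeq2 and in the chow libraries alone. Sqle, squalene epoxidase, gave 0.49 ± 0.22 (edgeR adjusted p = 0.146) and was called without KO replicate 1 (0.0153). In the list of sterol export and storage genes, 4 of 18 rose and 0 fell. Abcg5, a sterol exporter, rose from 66.7, 67.1 and 72.7 to 98.9, 92.6 and 98.8 CPM (0.49 ± 0.10, edgeR adjusted p = 0.00497), and Soat1, which esterifies cholesterol, by 0.74. Abcg8, the partner of Abcg5, gave 0.31 ± 0.11 (edgeR adjusted p = 0.0802).

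Fatty acid oxidation genes had 4 rises and 6 falls among 34 tested (median -0.22). Cyp4a10, a fatty acid omega-hydroxylase, fell from 1751, 2397 and 1877 to 1456, 1011 and 862 CPM (-0.86 ± 0.16, edgeR adjusted p = 0.00381). Cyp4a31, a close relative, rose by 1.20, and the division of reads among such paralogs is uncertain. The 6 falls numbered 2 without WT replicate 2 or 3 or KO replicate 2 or 3, and 3 with the stricter filter. The 4 rises numbered 2 without WT replicate 1 or 3 or KO replicate 1 or 2, and with the replicate block. In glucose metabolism, 1 of 29 rose and 3 fell, with Ppp1r3b and Ppp1r3c, glycogen-targeting subunits of protein phosphatase, at -0.88 and -0.93. Both calls ended without WT replicate 1, KO replicate 1 or KO replicate 2, and that of Ppp1r3c also without WT replicate 3. Falls numbered 1 without WT replicate 1 or 3 or KO replicate 1. Pck1 stood at -0.01 ± 0.15 (edgeR adjusted p = 0.98). G6pc, glucose-6-phosphatase, was at 174 and 167 CPM in KO replicates 1 and 3 and at 603 CPM in KO replicate 2, against 442, 600 and 426 CPM in WT. It was not called (-0.64 ± 0.47, edgeR adjusted p = 0.393), but was without KO replicate 2 (0.0304).

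Nuclear-encoded subunits of the respiratory chain and ATP synthase fell together by a small amount. Of 40 tested, 27 fell (67.5%, against 5.82% of all tested genes and 20% of those at 100 CPM and over). None rose and 13 were not called, and all 40 had a negative log2 fold change with a median of -0.32. Ndufb9, a complex I subunit, stood at 229, 235 and 256 CPM in WT and 180, 173 and 178 CPM in KO (-0.44 ± 0.07, edgeR adjusted p = 0.00189). Sdha of complex II fell by 0.38 and Cox4i1 of complex IV by 0.39. The count was 14 without WT replicate 3 and 15 without KO replicate 2. Of 8 mitochondrially encoded genes, 0 fell and 3 rose (mt-Nd2, mt-Nd4 and mt-Nd5, by 0.42 to 0.55). The number of rises was 0 without WT replicate 1, WT replicate 3 or KO replicate 2, and 1 without KO replicate 1. The summed level of the 8 genes did not rise as a whole. It was 11630, 11890 and 11750 CPM in WT and 12510, 11420 and 9981 CPM in KO, ranges that overlap. Over all tested genes the median log2 fold change went from -0.0758 in the quartile of shortest gene models to 0.075 in the longest. The part of gene length and of expression level in these small falls was not tested.

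Drug metabolism genes fell more often than they rose, and 6 of 23 hepatocyte markers (26.1%) fell as well. Falls took in 5.82% of all tested genes and 20% of those at 100 CPM and over, and rises 9.72% and 4.98%. The part of expression level and of the marker change in the falls of drug metabolism, zonation and respiratory chain genes was not tested. Of 35 tested P450 genes 9 fell (25.7%) and 2 rose (5.71%). The rises numbered 1 without WT replicate 2 or 3 or KO replicate 1 or 2, with the stricter filter or with limma voom. Cyp2b10, the best-known CAR target, fell from 5.94, 6.16 and 10.3 to 1.16, 2.07 and 0.945 CPM (-2.44 ± 0.34, edgeR adjusted p = 0.000459). Cyp2c29, another CAR target, fell from 882, 833 and 945 to 459, 343 and 337 CPM (-1.22 ± 0.12, edgeR adjusted p = 4.76e-05), and Cyp2e1, which metabolizes ethanol, fell by 0.67. Cyp3a11, the typical PXR target, gave 0.24 ± 0.19 (edgeR adjusted p = 0.421). Of 39 conjugating enzymes 19 fell (48.7%) and 4 rose (10.3%). Gsta2 and Gstt3, glutathione transferases, fell by 1.76 and 1.49 and the sulfotransferase Sult1a1 by 0.96 on the log2 scale. Ugt2b37, a glucuronosyltransferase, rose from 2.00, 5.10 and 4.22 to 13.1, 29.5 and 26.2 CPM (2.60 ± 0.32, edgeR adjusted p = 0.000198). The 19 falls were 12 without WT replicate 3 or KO replicate 2, and the 4 rises were 1 without KO replicate 1 and 2 without WT replicate 1 or 3.

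Organic ion carriers of the Slc22 family included several low-level falls. In that list 7 of 22 tested members fell and 1 rose. Slc22a3, an extraneuronal monoamine transporter, went from 6.44, 7.15 and 6.36 to 1.83, 1.24 and 0.63 CPM (-2.40 ± 0.30, edgeR adjusted p = 0.000211). Slc22a26 fell by 3.25 and Slc22a28 by 1.77. The count of 7 was 4 without WT replicate 1 or KO replicate 2, and 3 with the stricter filter. Cyp2c, Gst, Ugt and Slc22 genes have close paralogs that share sequence, and genes of the Ugt1a locus share exons, so the division of reads among them is uncertain.

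Enzymes of the periportal zone, where urea is made, fell in 9 of 22 tested cases and rose in 4. Arg1, arginase, stood at 2053, 1970 and 1870 CPM in WT and 1299, 1360 and 1053 CPM in KO (-0.67 ± 0.11, edgeR adjusted p = 0.002). Asl, argininosuccinate lyase, fell from 1072, 1006 and 877 to 575, 750 and 437 CPM (-0.74 ± 0.15, edgeR adjusted p = 0.00582). The pericentral list held 8 falls and 4 rises among 24. Oat, ornithine aminotransferase, stood at -0.74, the amino acid transporter Slc1a4 at 2.02 and the ammonium transporter Rhbg at 1.89. The summed level of the pericentral list was 17120 to 18270 CPM in WT and 11630 to 12060 CPM in KO. For the periportal list it was 20040 to 21640 CPM in WT and 14430 to 19740 CPM in KO. Abundant genes weigh most in these sums. The 9 periportal falls were 5 without WT replicate 1 or KO replicate 3, and its 4 rises were 2 without WT replicate 3 or KO replicate 2. The 8 pericentral falls were 5 without WT replicate 2, WT replicate 3 or KO replicate 3, and its 4 rises were 2 without WT replicate 1.

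In methyl-group and sulfur amino acid metabolism 8 of 30 genes fell (13 by DESeq2) and 1 rose (2 in the chow libraries alone). Inmt, an amine methyltransferase, fell from 241, 241 and 267 to 140, 116 and 107 CPM (-1.04 ± 0.11, edgeR adjusted p = 5.71e-05). Ahcy, which clears S-adenosylhomocysteine, fell by 0.55 and Gnmt, glycine methyltransferase, by 0.41. Csad, which makes the taurine precursor hypotaurine and is itself a reported Shp target, was the gene that rose, from 495, 684 and 629 to 1175, 1035 and 1218 CPM (0.92 ± 0.14, edgeR adjusted p = 0.000685).

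Major urinary protein genes, which are male-biased and under growth hormone control, made up all 9 falls among 29 tested genes of the male-biased list, in which 4 genes rose. Mup17 went from 223, 425 and 369 to 37.0, 14.6 and 29.8 CPM (-3.64 ± 0.67, edgeR adjusted p = 0.00297). Mup20, by contrast, rose from 919, 1413 and 1361 to 2113, 2153 and 2606 CPM (0.90 ± 0.15, edgeR adjusted p = 0.00212). The male-biased Cyp4a12a and Cyp4a12b also rose (0.87 and 1.77), and the female-biased list gave 3 rises and 5 falls among 18. Mup genes are near-identical copies, and their separate counts are uncertain, as are those of the Cyp4a paralogs. The 9 falls were 3 to 5 without WT replicate 2, WT replicate 3, KO replicate 2 or KO replicate 3, and the 3 rises of the female-biased list were 0 or 1 in all fits that left out a chow library other than KO replicate 3, 0 with the stricter filter, 1 with limma voom and 5 by DESeq2. Its 5 falls were 3 with the stricter filter. Cish, a feedback inhibitor of cytokine and growth hormone signalling, rose by 2.19.

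Of 20 circadian clock genes 1 rose and 3 fell, with 4 rises without WT replicate 2 and 2 in the chow libraries alone. Arntl, the activator also called BMAL1, fell from 13.6, 6.09 and 13.8 to 3.93, 3.73 and 5.04 CPM (-1.40 ± 0.26, edgeR adjusted p = 0.00345). Per3, a clock repressor, rose from 19.2, 28.7 and 16.1 to 46.8, 42.9 and 34.9 CPM (0.96 ± 0.18, edgeR adjusted p = 0.00295). Times of tissue collection are not given in the sources used here.

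Among imprinted and fetal liver genes, the largest rises came from 1 imprinted region of chromosome 12, which expresses non-coding RNAs from the maternal copy. Meg3 stood at 0.358, 0.708 and 0.277 CPM in WT against 52.5, 52.9 and 46.2 CPM in KO (6.80 ± 0.24, edgeR adjusted p = 5.97e-10). Rian, a long non-coding RNA that hosts small nucleolar RNAs, went from 0.143, 0.212 and 0.346 to 50.4, 63.4 and 68.0 CPM (7.96 ± 0.31, edgeR adjusted p = 1.8e-09). Mirg, the host of a microRNA cluster, went from 4 counts in all WT livers together to 307 in KO (5.97 ± 0.51). Each KO liver was many times above each WT liver for these RNAs. Rtl1, a paternally expressed retrotransposon-derived gene of the same region, had 3 counts in WT and 302 in KO, which is 88.5 times as many per library size (95% interval from counting error alone, 30.0 to 432). The strand setting of the counting is not given in the sources used here, so Rtl1 and its antisense transcript cannot be told apart. Dlk1 was not analysed here.

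Other imprinted or fetal genes rose at low levels. H19, a fetal liver RNA, went from 0.0715, 0.0708 and 0.484 to 1.55, 2.62 and 2.46 CPM (3.33 ± 0.51, edgeR adjusted p = 0.000907), and its change was 4.79 without WT replicate 3. Afp, alpha-fetoprotein, was not called (0.39 ± 0.35, edgeR adjusted p = 0.49). In all, 9 of 20 tested members of this list rose and 0 fell.

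Genes of the interferon response rose as a group and at moderate size. Of 34 tested members 29 rose (85.3%, against 9.72% of all tested genes), 0 fell and 5 were not called, with a median log2 fold change of 1.21, and 25 to 28 rose when any 1 chow library was left out. Irf7, the transcription factor that amplifies the response, stood at 17.2, 16.7 and 16.4 CPM in WT against 68.3, 73.4 and 57.5 CPM in KO (1.98 ± 0.16, edgeR adjusted p = 4.9e-06). Usp18, its feedback inhibitor, rose from 6.44, 4.601 and 5.39 to 33.3, 40.2 and 39.5 CPM (2.78 ± 0.24, edgeR adjusted p = 9.31e-06). The groups of both genes were far apart. Bst2, which tethers virions to the cell, rose by 0.92 and Ifi44 by 2.92.

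The GTPases induced by interferon gamma rose in 15 of 18 tested cases, with 0 falls and a median of 1.21, and in 11 to 17 when any 1 chow library was left out. Igtp stood at 28.1, 21.0 and 17.8 CPM in WT against 64.8, 58.0 and 72.6 CPM in KO (1.55 ± 0.26, edgeR adjusted p = 0.00154). Gbp7, a guanylate-binding protein, rose from 15.7, 10.3 and 10.6 to 30.3, 34.1 and 43.0 CPM (1.55 ± 0.22), Irgm1 by 1.00 and Irgm2 by 1.19. Gbp genes have close paralogs, so their separate counts are uncertain.

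The interferon-stimulated response element is the DNA site at which interferon-activated factors bind, and its core was searched on both strands as GAAA, any 2 bases and GAAA again, which reads TTTC, 2 bases and TTTC on the other strand, in RefSeq promoters of GRCm38.p6, from 250 bases before to 50 after each start. It lies in 3.44% of 32851 such promoters. Among genes with a promoter in the table it was found for 86 of 946 that rose (9.09%), 14 of 578 that fell (2.42%) and 281 of 8087 not called (3.47%). Of the interferon list 13 of 24 matched genes held it (54.2%), and of the GTPase list 9 of 10. The 250 bases before the start of 5 of the rising genes are shown because they carry this element close to the start, 5′ to 3′ on the strand of the gene, with the matches in capitals. Bst2 is at chr8:71537473-71537722 (minus strand), Irgm1 at chr11:48871421-48871670 (minus), Irgm2 at chr11:58214727-58214976 (plus), Igtp at chr11:58199306-58199555 (plus) and Gbp7 at chr3:142530086-142530335 (plus).
Bst2: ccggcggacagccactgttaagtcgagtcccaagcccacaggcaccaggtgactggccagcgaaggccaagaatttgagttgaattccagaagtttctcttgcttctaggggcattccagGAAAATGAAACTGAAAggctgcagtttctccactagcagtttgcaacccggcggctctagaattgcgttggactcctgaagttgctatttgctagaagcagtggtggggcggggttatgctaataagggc
Irgm1: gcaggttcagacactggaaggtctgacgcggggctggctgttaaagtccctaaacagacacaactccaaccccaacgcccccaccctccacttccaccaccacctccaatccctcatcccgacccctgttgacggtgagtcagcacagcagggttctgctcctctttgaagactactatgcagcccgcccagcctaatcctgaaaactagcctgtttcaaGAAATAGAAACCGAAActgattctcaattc
Irgm2: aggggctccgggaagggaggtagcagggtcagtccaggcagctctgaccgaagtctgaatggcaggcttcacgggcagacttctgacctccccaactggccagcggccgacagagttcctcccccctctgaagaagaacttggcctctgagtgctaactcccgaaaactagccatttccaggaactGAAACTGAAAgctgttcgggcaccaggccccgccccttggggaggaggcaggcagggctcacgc
Igtp: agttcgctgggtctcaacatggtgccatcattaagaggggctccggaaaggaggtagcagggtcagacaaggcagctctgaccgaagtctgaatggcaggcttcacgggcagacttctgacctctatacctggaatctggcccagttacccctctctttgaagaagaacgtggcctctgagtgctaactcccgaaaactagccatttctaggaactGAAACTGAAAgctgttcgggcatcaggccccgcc
Gbp7: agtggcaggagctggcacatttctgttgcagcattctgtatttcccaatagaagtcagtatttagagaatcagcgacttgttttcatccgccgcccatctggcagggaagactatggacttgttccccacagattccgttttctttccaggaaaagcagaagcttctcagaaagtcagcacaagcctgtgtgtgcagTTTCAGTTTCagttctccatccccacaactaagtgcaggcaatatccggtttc
In Bst2 and in Irgm1 the 2 matches overlap by 4 bases. Irgm2 and Igtp carry the same 10 letters, GAAACTGAAA, as does Bst2 in its match nearer the start. Gbp7 has these letters on the opposite strand. The printed sequences of Irgm2 and Igtp are alike over long stretches, so their matches are not separate examples. The search was repeated with the extended NR5A site CAAGGTCA (TGACCTTG on the other strand), which LRH-1 binds. It lies in 1.56% of all promoters, 1.16% of those of rising genes, 0.865% of falling and 1.43% of genes not called. None of 12 matched genes of the bile acid synthesis list held it. With matches in 1.37% of tested genes, 12 genes are too few for that absence to be informative. Only this exact string was searched, so sites with other letters were not counted. A match describes letters in this window and is not a binding site.

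Antigen presentation genes rose too. In the MHC class I list 12 of 17 tested genes rose and 1 fell. Tap1, the peptide transporter, went from 21.2, 17.3 and 16.2 to 36.9, 35.3 and 49.2 CPM (1.15 ± 0.18, edgeR adjusted p = 0.000849), and Nlrc5, the transactivator of class I genes, rose by 0.72. H2-Q2 was the gene that fell (-3.04 ± 0.64, edgeR adjusted p = 0.00689), but was not called by limma voom (adjusted p = 0.0607), has 2 rows in the table and shares sequence with other class I genes. In the class II list 5 of 10 rose, and the number ranged from 2 (without WT replicate 2 or 3 or KO replicate 3) to 8 (without WT replicate 1), with 3 without KO replicate 1.

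Inflammatory genes and chemokines rose in part. Of 24 genes of NF-kB signalling 9 rose and 0 fell, and 5 rose without WT replicate 3. Icam1, an adhesion molecule, went from 11.7, 11.3 and 12.1 to 28.6, 26.7 and 24.8 CPM (1.19 ± 0.17, edgeR adjusted p = 0.000583). Tnf was at 0.0708 to 0.215 CPM in WT and 0.483 to 1.83 CPM in KO (2.95 ± 0.62, edgeR adjusted p = 0.00709). Nlrp3, an inflammasome sensor reported to be restrained by Shp, gave 0.47 ± 0.32 (edgeR adjusted p = 0.349). Of 20 chemokine genes 10 rose and 0 fell, with a median of 1.01. Ccl2, which recruits monocytes and is a reported Shp target, went from 0.143, 0.283 and 0.277 to 2.88, 1.66 and 1.83 CPM (3.15 ± 0.50, edgeR adjusted p = 0.00115). With the stricter filter 4 of the chemokine genes were called.

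Among 33 acute phase genes 7 rose and 1 fell. Saa2 stood at 24.4, 23.1 and 7.05 CPM in WT against 110, 95.2 and 24.6 CPM in KO, wide within each group (2.08 ± 0.56, edgeR adjusted p = 0.0241). The lowest liver of each group was replicate 3, and the call ended without WT replicate 3 or KO replicate 1 or 2 (edgeR adjusted p = 0.0929, 0.0835 and 0.0705). Saa1, its near-identical neighbour, was not called (1.34 ± 0.57, edgeR adjusted p = 0.128) but passed with the replicate block (0.0277) and without KO replicate 3 (0.0445). Saa3, made by macrophages as well, rose by 1.59 and Orm2, an orosomucoid, by 2.22. The fit of Orm2 gave 2.82 without WT replicate 1. The 7 rises were 4 without WT replicate 3 or KO replicate 2. Complement and coagulation genes rose in 9 of 34 cases and fell in 1, with C3 going from 8515, 8267 and 7185 to 11900, 15420 and 11090 CPM (0.68 ± 0.14, edgeR adjusted p = 0.00585).

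**Figure D4:**
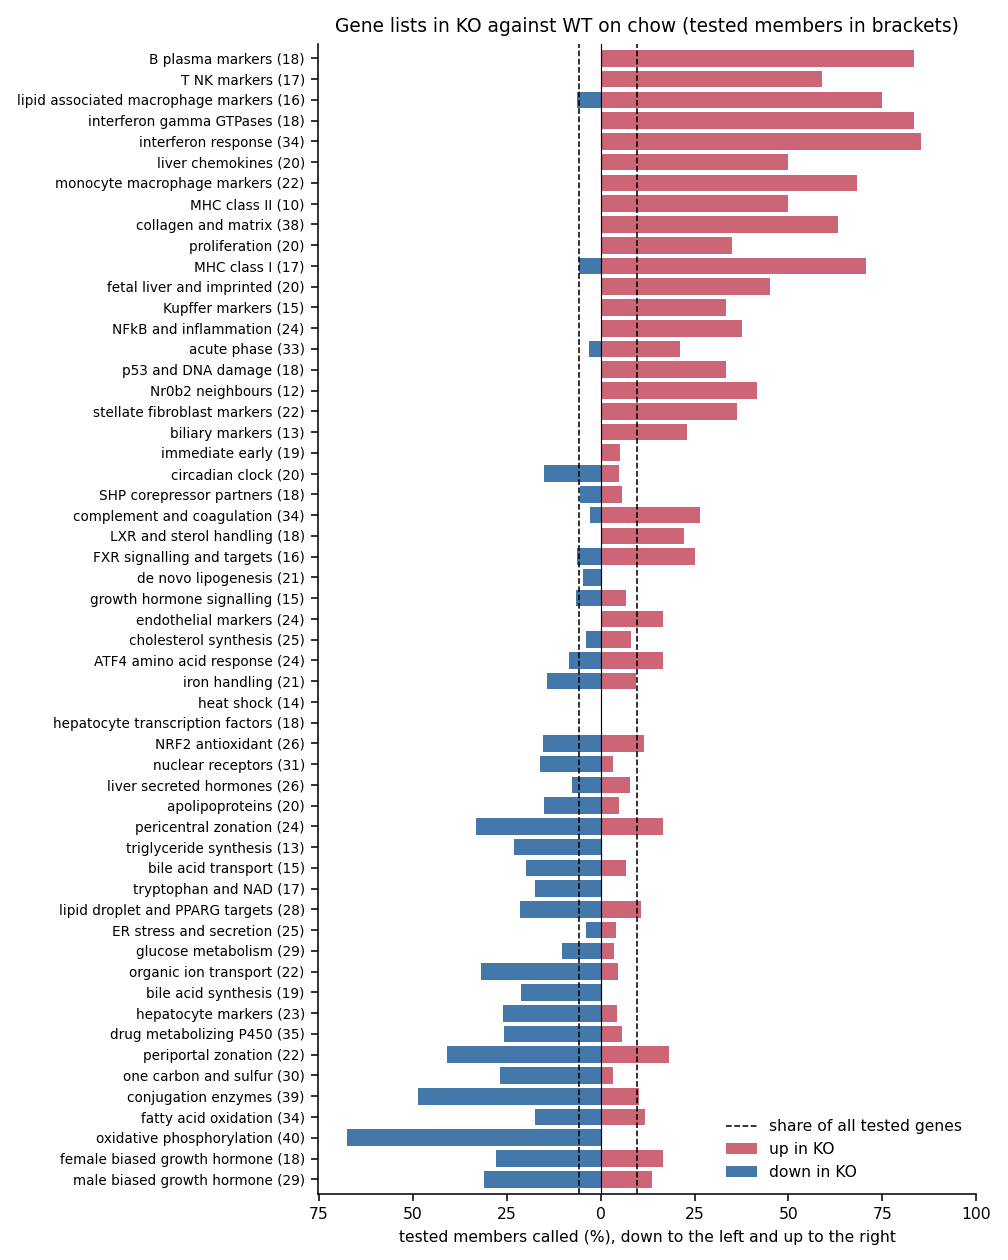
Share of tested members called up (red, to the right) or down (blue, to the left) in KO on chow for each gene list with at least 10 tested members, which are numbered in brackets and ordered by median log2 fold change, with dashed lines at the shares of all tested genes (9.72% up and 5.82% down). Interferon response and B cell and plasma cell markers reach 85.3% and 83.3% up, and respiratory chain genes reach 67.5% down.

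Markers of monocytes and macrophages were higher in KO. In the general list 15 of 22 tested rose and 0 fell (median 0.97), with Mpeg1, a pore-forming protein of phagocytes, going from 73.5, 62.1 and 50.2 to 151, 152 and 150 CPM (1.29 ± 0.20, edgeR adjusted p = 0.000957). The summed level of the list was 250.7 to 310.5 CPM in WT and 533.1 to 570.9 CPM in KO. Ly6c2, a marker of infiltrating monocytes, went from 0.0715, 0.283 and 0.207 to 2.21, 1.79 and 3.40 CPM (3.66 ± 0.48, edgeR adjusted p = 0.000322). Of the markers of lipid-associated macrophages 12 of 16 rose and Cd36 fell. Gpnmb was the largest of them, at 0.358, 0.283 and 0.484 CPM in WT and 14.0, 14.2 and 15.8 CPM in KO (5.26 ± 0.65, edgeR adjusted p = 0.000204), and Mmp12, a macrophage elastase, rose by 3.14.

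Markers of resident Kupffer cells moved less. Of 15 tested, 5 rose and 0 fell (Clec4f, Vsig4, C1qa, C1qb and C1qc, by 0.38 to 0.73). That count was 0 without WT replicate 3, 1 without any other single chow library, and 11 when the chow libraries were fitted alone. All 15 log2 fold changes were positive, and the summed level went from 736.1 to 743.4 CPM in WT to 979.3 to 1028 CPM in KO.

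Several antibody genes were at under 2 CPM in every WT liver and far higher in every KO liver. Igj, the J chain of secreted antibodies, stood at 1.22, 0.92 and 1.38 CPM in WT against 98.4, 88.3 and 117 CPM in KO (6.42 ± 0.17, edgeR adjusted p = 1.78e-11). Igkc, the kappa constant region, went from 1.36, 1.77 and 1.52 to 262, 273 and 333 CPM (7.54 ± 0.17, edgeR adjusted p = 4.26e-12). Ighg1 went from 0.143, 0.212 and 0.346 to 435, 506 and 467 CPM (10.91 ± 0.26, edgeR adjusted p = 5.54e-12). The groups of these 3 genes were far apart.

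Summed over the 77 genes with an immunoglobulin heavy, kappa or lambda symbol, WT livers held 111, 94 and 129 counts (6.65 to 8.92 CPM) and KO livers 23243, 18671 and 25010 counts (1290 to 1580 CPM). Of the 44 of these genes that were tested 39 rose and 0 fell. Of 29 rising genes with no count in any WT chow liver, 14 were immunoglobulin genes by symbol. Others had provisional symbols on the chromosomes of the heavy and kappa genes, such as Gm9740 and Gm16814 on chromosome 12 and Gm5724 on chromosome 6. Whether these are antibody genes cannot be told from the symbol. Igkv3-2, chosen after its values were seen, had 0 counts in WT and 140 in KO, at least 41.0-fold higher when the 3 WT livers together are given 3 counts. The WT livers on HFCF were low as well, at 5.09 to 9.67 CPM, and the KO livers on HFCF held 678 to 741 CPM, so the split followed the genotype on both diets. Variable segments share sequence, so single segments are uncertain.

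The list of B cell and plasma cell markers, which includes Igj, Igkc and Ighg1, had 15 of 18 members up and 0 down (median 1.83), and 6 up with the stricter filter. Its 7 antibody genes all rose, by 1.94 to 10.91. Of its 11 other markers 8 rose, and their log2 fold changes ran from -0.05 to 2.91. Irf4, a transcription factor needed for plasma cells and present in other immune cells, is not in the list and rose from 0.715, 0.283 and 0.761 to 5.98, 7.11 and 5.55 CPM (3.38 ± 0.25, edgeR adjusted p = 2.9e-06). Ighm, the heavy chain of unswitched B cells, which was chosen after its values were seen, went from 3.93, 2.69 and 4.70 to 16.1, 22.2 and 40.6 CPM (2.79 ± 0.35, edgeR adjusted p = 0.000246). Ighm was detected in every WT liver. Of T and NK cell markers 10 of 17 rose and 0 fell, with Cd4 at 1.40 and Cd5 at 2.64, and the number was 4 without WT replicate 3 or KO replicate 3, 5 without WT replicate 2, 6 in the chow libraries alone and 0 with the stricter filter.

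Matrix genes rose in KO. Of 38 tested collagen and matrix genes 24 rose and 0 fell (63.2% up, median 0.74), and 16 to 20 rose when any 1 chow library was left out. Col1a1, fibrillar collagen, stood at 2.72, 1.77 and 2.70 CPM in WT against 19.4, 18.1 and 21.2 CPM in KO (3.03 ± 0.42, edgeR adjusted p = 0.000459). Col1a2 went from 12.4, 10.1 and 14.2 to 45.4, 46.8 and 48.5 CPM (1.94 ± 0.28), and Mmp2, a gelatinase, rose by 1.49. Groups did not overlap in any of these genes. Of 22 stellate cell and fibroblast markers 8 rose and 0 fell, with Lum at 1.05 and Pdgfrb at 0.75. Markers of sinusoidal endothelium were mostly not called, with 4 rises of 24 and a median of 0.09, and 1 to 3 rises when 1 chow library was left out, against 7 in the chow libraries alone. Markers of blood, adipose tissue, and pancreas and gut showed no rise. Car3, which is in the adipose list and abundant in liver, fell by 1.48 and Alas2, a heme synthesis enzyme of red cells, by 0.58.

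Cell cycle genes rose at low levels, in 7 of 20 tested cases with 0 falls. Mki67, a marker of cycling cells, went from 2.93, 1.42 and 2.42 to 9.30, 7.38 and 8.89 CPM (1.92 ± 0.26, edgeR adjusted p = 0.000414), and Cdk1 rose by 1.46. The count was 4 without WT replicate 1, WT replicate 3 or KO replicate 3, and 3 with the stricter filter. In the list of p53 targets 6 of 18 rose and 0 fell. Eda2r, a death receptor, went from 1.22, 0.566 and 0.691 to 4.76, 5.66 and 4.85 CPM (2.61 ± 0.29, edgeR adjusted p = 9.22e-05) and Phlda3, an inhibitor of AKT, rose by 2.28. The count was 3 without WT replicate 3 or KO replicate 3.

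Some further lists held scattered calls. Rises made up 5% to 11.5% of their tested members and falls 7.69% to 15.4%, against 9.72% and 5.82% of all tested genes. Of 26 NRF2 targets, which protect from oxidation, 3 rose (5 in the chow libraries alone) and 4 fell (2 without KO replicate 2). Of 21 iron handling genes 2 rose and 3 fell; 1 rose without any single chow library, and the falls were 0 without KO replicate 2 and 1 without WT replicate 1 or KO replicate 1 or 3. Of 20 apolipoprotein and lipoprotein genes 1 rose and 3 fell, with no rise without any single chow library other than WT replicate 3, 1 fall without WT replicate 3 and 5 falls by DESeq2. Enho, which encodes the secreted peptide adropin, rose from 12.8, 16.9 and 14.1 to 25.6, 37.7 and 32.9 CPM (1.13 ± 0.21, edgeR adjusted p = 0.00285). Leap2, the ghrelin receptor antagonist, fell by 1.28. These 2 come from 26 liver-secreted hormones, of which 2 rose (1 without WT replicate 3) and 2 fell, with 4 falls by DESeq2 and 6 in the chow libraries alone.

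Further genes with large differences belong to no list. Slpi, a secreted protease inhibitor, went from 1.00, 1.63 and 0 to 18.8, 16.1 and 22.3 CPM (4.44 ± 0.41, edgeR adjusted p = 1.79e-05), with 5.24 without WT replicate 2, 3.85 without WT replicate 3 and 5.62 by limma voom. Gldn, a gliomedin gene, rose by 5.77 and the monooxygenase gene Moxd1 by 4.78, from 4 WT counts each. The fit of Gldn gave 9.42 without WT replicate 2, which held all 4 of its counts, and the call of Moxd1 ended with limma voom (adjusted p = 0.0969), with 4.16 without KO replicate 3. Among falls, Olig1, a transcription factor better known from glia, went from 3.58, 4.11 and 3.32 to 0.332, 0.207 and 0.252 CPM (-3.73 ± 0.30, edgeR adjusted p = 5.02e-06). Rcan2, a calcineurin regulator, fell by 3.07. Each KO liver was below each WT liver for both genes.

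The same genotype comparison on HFCF uses no library of the chow comparison, though both come from 1 fit. There 1558 genes rose (10.6% of those tested) and 1256 fell (8.52%). Of the chow rises 54.7% also rose on HFCF, and of the HFCF rises 50.3% rose on chow (784 genes). For falls the shares were 50.1% and 34.2% (429 genes). Across all tested genes the 2 log2 fold changes had a Pearson r of 0.78 and a Spearman rho of 0.547, given as a description since genes are not independent. Nr0b2, Meg3, Igj, Plin4 and Pparg differed the same way on both diets. The interaction, which tests whether the genotype difference depends on diet, was called for 117 genes (0.794%), 42 of them also called on chow, which is 1.83% of the chow calls. DESeq2 called 341. The number was 11 without KO HFCF replicate 2, and 16 to 46 without any one of WT chow replicates 1, 2 and 3, KO chow replicates 1 and 3, WT HFCF replicate 2 and KO HFCF replicates 1 and 3.

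**Figure D5:**
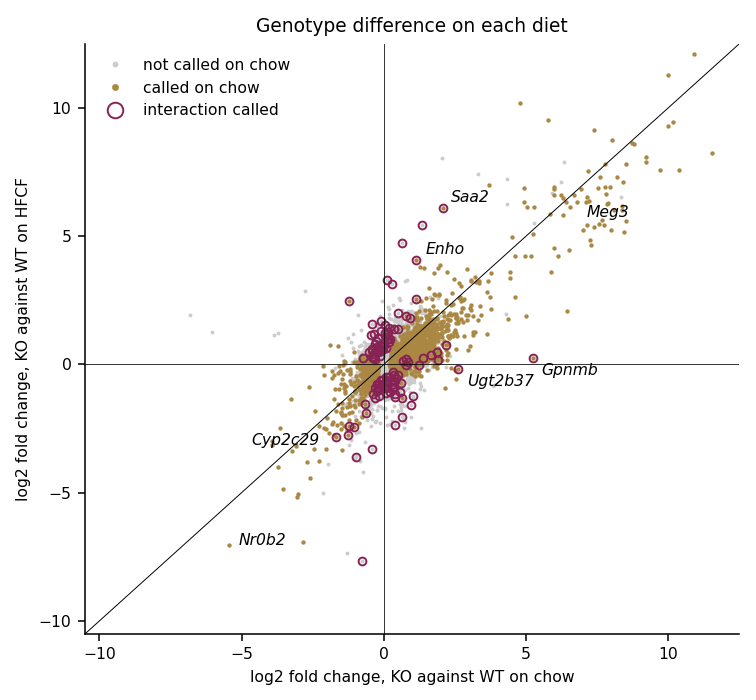
Log2 fold change of KO against WT on chow (horizontal axis) against that on HFCF (vertical axis) for all tested genes, in grey where not called on chow and brown where called, with open circles for the 117 genes whose interaction was called; the diagonal marks equal values. Nr0b2 lies at -5.44 on chow and -7.05 on HFCF, Meg3 at 6.80 and 6.35, and Gpnmb at 5.26 on chow and 0.27 on HFCF.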

How the data were processed

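RNA-seq of mouse liver was analysed from 1 deposited table that gives, per the file headers, a count and an FPKM value for each gene and library. The authors' counts are whole numbers per gene, and the authors' FPKM values divide by gene length and depth; FPKM was not used for any test. Per the submitters' processing notes the genome build is mm10. Which aligner, counter, annotation and strand setting were used is not given in the sources used here. Of 14101 tested genes matched by gene ID to GENCODE vM21, 9821 had a deposited start 1 below the annotated start and 262 the same start, so starts are printed with 1 added.

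Counts were tested with edgeR 4.0.16 in R 4.3.3 (filterByExpr with a minimum count of 10 and total of 15, TMM, quasi-likelihood fit of 4 group means over all 12 libraries), calling genes at an adjusted p under 0.05. The chow comparison was tested on simulated data with 14512 genes, of which 100 were changed by log2 1 and 100 by log2 2 in random directions. It recovered 79% and 95% of them, with 7 unchanged genes among 181 calls. The changed genes had a mean count of at least 10, and counts were drawn from the fitted spread. Far more genes were called in the livers, mostly up, so these figures need not hold for them. Alternatives were other scalings and filters, DESeq2 1.42.0, limma 3.58.1 voom, a replicate block, the chow libraries alone and leaving out each library. Named genes were a set list of Shp-related genes, the called genes with the 15 highest and the 15 lowest log2 fold changes on chow at a mean of 1 CPM or more whose groups do not overlap (without provisional symbols or immunoglobulin and T cell receptor segments), up to 6 called members per list by adjusted p, and those of them with a called interaction. The members and lists were chosen with earlier results of these data known. Some genes that this rule names are not reported here, and they remain in the counts.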

Additional observations from a re-analysis of the deposited data

Results flagged for a closer look

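For 12 of the named genes reported here the difference between KO and WT was not the same on the 2 diets, by the interaction term of the edgeR fit. Each value below is the log2 fold change on HFCF minus that on chow. In 2 of these genes the call held in all 19 alternatives. Enho, which encodes adropin, rose more on HFCF (difference 2.95 ± 0.34, edgeR adjusted p = 0.0034). Cyp2c29 fell more on HFCF (-1.16 ± 0.18, edgeR adjusted p = 0.0165).

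The other 10 differences lost their call in 7 to 13 of the 19 alternatives. The acute phase genes Saa1 and Saa2 had larger differences on HFCF by 4.09 and 4.03, and Orm1 by 1.12. Csad was higher on HFCF by 0.91, and Asl, which fell on chow, by 1.00. Gpnmb, which rose on chow, differed by -4.99, Ugt2b37 by -2.76, Rhbg by -1.41 and Col6a2 by -1.30, and none of these 4 was called on HFCF. Srebf1, not called on chow, fell on HFCF and differed by -1.20. No sample was tested as an outlier, since each group holds 3 livers.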

How the results depend on the processing

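With 3 livers a group, counts of chow calls moved more when 1 library was left out than with the other settings. A fit without 1 library has fewer livers in a group, while the other settings keep all 3. These counts are thus not like for like, and a call that ended without a library need not depend on that liver in particular. Leaving out 1 chow library at a time gave 752 to 1087 genes up and 400 to 676 down, against 1432 and 857, and leaving out 1 library of either diet gave 11 to 136 interaction calls against 117, with 341 by DESeq2. The other settings gave 1151 to 1479 genes up and 639 to 959 down. Of 264 named genes called on chow, 181 were called in every alternative and 0 changed direction. With the replicate number as a block, 1378 genes rose and 735 fell, and 97 interactions were called. The labels do not say that a number pairs livers. Correlations of same-numbered deviations were -0.0328, 0.122 and 0.0918, and not every liver correlated best with its own number. The second principal component (11.4%) placed same-numbered livers side by side (2.46 and -2.03, -19.4 and -17.5, 17 and 19.5). With 3 livers a group such an order can arise without pairing, so it cannot show whether the numbers pair livers. Genes at a few counts are limited by depth. The cause of these shifts was not tested.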
